A study of Mus musculus with 6 samples.

Results

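The Dlk1-Dio3 imprinted cluster is a group of neighbouring genes on mouse chromosome 12, and its transcripts were followed here in 6 clones of induced pluripotent stem cells (iPSCs). Its members were taken as Dlk1, Rtl1, Dio3, Meg3, Rian and Mirg, through all probe sets that the array annotation assigns to 1 of these symbols alone. The rule gave 19 probe sets of the 45037 analysed: 11 for Meg3, 4 for Rian, 2 for Dlk1 and 2 for Mirg. Thus 4 of the 6 genes were measured, whereas Rtl1 and Dio3 had no probe set under their own name and are not analysed here.

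All clones came from embryonic fibroblasts of Nanog-GFP reporter mice, which had been infected with retroviruses carrying Oct3/4, Sox2, Klf4 and c-Myc together with dsRed. The 3i inhibitors were SU5402, PD184352 and CHIR99021, which act on FGF receptors, MEK and GSK3. The (−)/(+) iPSCs (clones 1 to 3) were reprogrammed without 3i, the (+)/(+) iPSCs (clones 4 to 6) were reprogrammed with 3i, and both groups were kept in 3i after their colonies had been isolated, on SNL feeder cells. Each clone was a separate colony and was measured on 1 Affymetrix expression array, so that p-values cover the spread between these clones and no further level of replication.

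Genomic imprinting is the expression of a gene from only the maternal or only the paternal copy. In this cluster Dlk1, Rtl1 and Dio3 encode proteins and are expressed from the paternal copy, while Meg3, Rian and Mirg are noncoding RNAs of the maternal copy, and a DNA element between Dlk1 and Meg3 that is methylated on the paternal copy keeps the copies apart. Low expression of Meg3 and Rian is known as a mark of iPSC clones in which the maternal copy has been silenced. The arrays read total RNA and do not tell the copies apart, and allelic methylation is not analysed here.

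The values are MAS 5.0 signals, an array brightness scaled by the authors to a common level on each array. Their medians over all probe sets were 75.7, 75.4 and 74.2 in (−)/(+) clones 1 to 3, and 64.1, 70.2 and 67.6 in (+)/(+) clones 4 to 6. The array medians were thus lower in every (+)/(+) clone. Signals below 100 made up 55.0% to 55.3% of probe sets in the (−)/(+) clones and 56.2% to 57.4% in the (+)/(+) clones. Tests used log2(signal + 16) in limma with Benjamini-Hochberg adjustment over the 22518 probe sets above the median brightness, which lay at a signal of 67.2. Differences are given as (+)/(+) minus (−)/(+) on that log2 scale, which understates the change of dim probe sets. Of the 19 probe sets of the cluster, 4 passed this filter, namely 1 for Dlk1, 2 for Meg3 and 1 for Rian. The 15 below it were fitted by limma only in an alternative without the filter, which called none of the 19. In the plot of signals by probe set, most of the cluster sat below the filter.

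**Figure D1:**
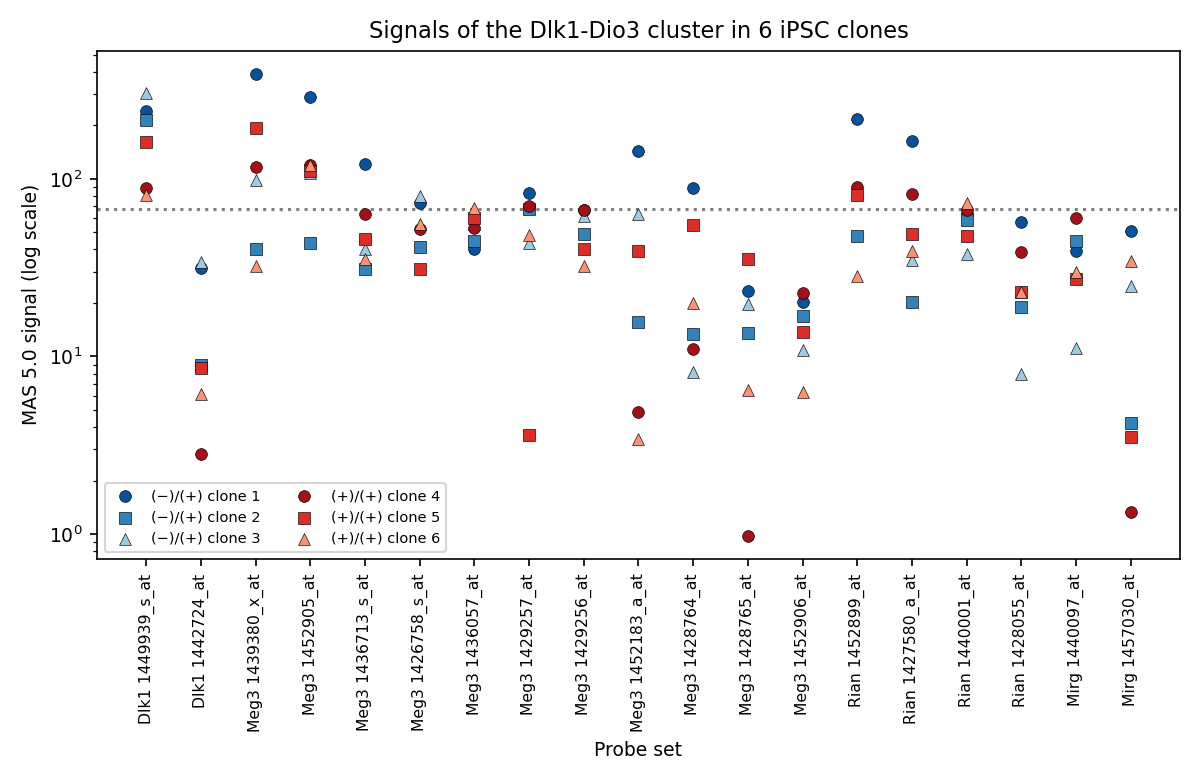
MAS 5.0 signal (y axis, log scale) of each of the 19 probe sets of the Dlk1-Dio3 cluster (x axis) in 3 (−)/(+) clones (blue) and 3 (+)/(+) clones (red), 1 point per clone. The dotted line is the filter at a signal of 67.2, and 15 probe sets have their mean log2 value below it. Clone 1 is the highest point of the brightest Meg3 and Rian probe sets.

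The brighter probe set of Dlk1 was lower in the (+)/(+) iPSCs, by a call that did not hold under every setting. Dlk1 encodes a membrane protein with EGF-like repeats, related to the Notch ligands, which is made by many embryonic and progenitor cells. Probe set 1449939_s_at gave signals of 241, 214 and 302 in (−)/(+) clones 1 to 3, and signals of 88.7, 162 and 81.1 in (+)/(+) clones 4 to 6. All (−)/(+) clones were above all (+)/(+) clones, with clone 5 the nearest to the other group. Of all tested probe sets, 27.1% had groups that did not overlap, in either direction. The Dlk1 mean fell from 252 ± 45.3 to 110 ± 44.5 (SD, n = 3 each). The log2 difference was -1.13 ± 0.25 (SE), with a 95% interval from -1.67 to -0.58 and an adjusted p of 0.040 by limma.

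This was the single call among the 4 tested probe sets of the cluster, and no member was called higher. Over all tested probe sets, limma called 1.77% lower and 1.35% higher, 3.12% in either direction. An exact two-sided permutation test of the 6 Dlk1 values gave p = 0.1, the smallest that 3 clones against 3 can give. In the order of signals the clones ran 3, 1, 2, 5, 4 and 6, and the steps from clone 1 to clone 2 and from clone 4 to clone 6 were smaller than the SD within either group.

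The Dlk1 call lay close to the threshold, and its adjusted p ran from 0.0093 to 0.22 over the settings tried. The call was lost after quantile normalization (0.056), without the filter (0.096), without the trend (0.067) and with the methods' t-test, adjusted here in the same way (0.22). Leaving out 1 clone gave log2 differences from -1.40 to -0.96, and the adjusted p stayed under 0.05 only without clone 5 (0.037). It was 0.052 without clone 1, 0.057 without clone 2, 0.13 without clone 3, 0.11 without clone 4 and 0.16 without clone 6. The suffix _s_at means that the probes of this set can match more than 1 transcript.

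The other Dlk1 probe set, 1442724_at, was below the filter, and had an adjusted p of 0.27 when limma was run without it. It gave signals of 31.6, 8.97 and 33.9 in (−)/(+) clones 1 to 3, and signals of 2.82, 8.58 and 6.13 in (+)/(+) clones 4 to 6. Its groups did not overlap either, although clone 2 lay next to clone 5, and the log2 difference was -0.85. Of all probe sets of the array, 12.9% had every (+)/(+) clone under every (−)/(+) clone.

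A stretch around a transcript start of Dlk1 is shown because Dlk1 was the member that was called. RefSeq begins the gene before this stretch, at 109452485, and the sequence around that position is not shown. The stretch runs from 250 bases before to 50 bases after the transcript start. It lies on chr12:109452573-109452872 of GRCm38.p6, plus strand, with each CpG in capitals.
Dlk1: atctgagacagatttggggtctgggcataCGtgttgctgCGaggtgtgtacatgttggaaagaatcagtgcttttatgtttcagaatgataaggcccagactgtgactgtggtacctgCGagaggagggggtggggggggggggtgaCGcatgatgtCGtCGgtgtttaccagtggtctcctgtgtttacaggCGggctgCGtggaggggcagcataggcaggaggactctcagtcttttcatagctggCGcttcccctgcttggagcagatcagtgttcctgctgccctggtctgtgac
It holds 9 CpG, the site of DNA methylation, against a median of 7 over the 32851 promoters of the same length, and 54.2% of them hold fewer. TATAAA, TGACGTCA (the CRE motif) and TGCCGC (the ZFP57 motif) were searched on both strands, with 0 matches in this stretch.

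The arrays held RNA of whole cultures, so that fewer cells of a type and less RNA per cell cannot be told apart. Dlk1 is also made by embryonic mesenchyme and preadipocytes, and most of the listed markers of fibroblasts and feeder cells moved in the same direction. Of 28 such genes 27 were measured and 24 tested, and limma called 12 lower and 0 higher in the (+)/(+) iPSCs, where 19 had an unadjusted p under 0.05. Over all 11177 genes tested with their brightest probe set, 1.41% were called lower. Of all 22518 tested probe sets, 4778 had an unadjusted p under 0.05 by limma, to be set beside such counts here and below. The median log2 difference of the 24 was -0.69, against -0.05 over all tested probe sets. The summed signal of the list was 41164 to 52811 in the (−)/(+) clones and 27902 to 31798 in the (+)/(+) clones, without overlap. Of all single probe sets of the array, 20.1% did not overlap either. Vim (10442 to 15054) and Fn1 (8693 to 10496 in the (−)/(+) clones) were the brightest of the list and weigh most in its sum.

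The collagen gene Col1a2 gave 1441, 1701 and 2096 in (−)/(+) clones 1 to 3, as against 468, 694 and 558 in (+)/(+) clones 4 to 6. Its groups were well apart, and its log2 difference was -1.58 with an adjusted p of 0.0043. The metalloproteinase inhibitor Timp3 (-1.37, adjusted p = 0.011), the matrix proteoglycan Bgn (-1.08, adjusted p = 0.011) and the intermediate filament Vim (-0.87, adjusted p = 0.011) were also lower. Among the defining markers that stayed below the filter, Col1a1 had signals of 86.2 to 101 in the (−)/(+) clones and 37.3 to 45.3 in the (+)/(+) clones. Tagln was at 22.1 to 74.8 and 5.99 to 32.2, and Lum at 5.49 to 25.6 and 0.829 to 53.1, in the same order. None was at 0. Lum had a higher mean in the (+)/(+) clones (17.7 against 25.1). The tested marker Postn did too, at 107 ± 25.3 against 126 ± 15.6 (SD), a log2 difference of 0.22 with an adjusted p of 0.59 by limma. Without 1 clone, 1 to 14 of the list were called lower: 14 without clone 1, 6 without clone 2, 4 without each of clones 3, 4 and 5, and 1 without clone 6. The part of fibroblasts or feeder cells in the Dlk1 difference was not tested.

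**Figure D2:**
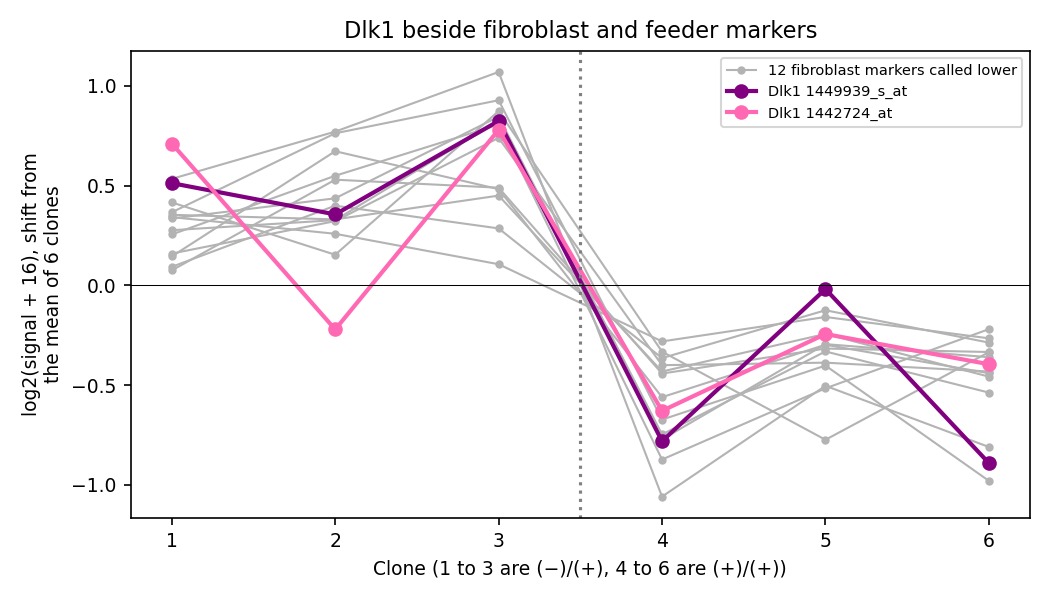
Shift of log2(signal + 16) from the mean of the 6 clones (y axis) by clone (x axis, with the groups split by the dotted line) for both Dlk1 probe sets (coloured) and for the 12 fibroblast and feeder markers called lower (grey). The 12 markers and the brighter Dlk1 probe set are above their mean in clones 1 to 3 and below it in clones 4 to 6, with Dlk1 nearest to its mean in clone 5. The split of the 12 markers follows from their choice by that call, and the other measured markers are not shown.

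Markers of other cell states gave no calls. Of 12 genes of undifferentiated pluripotent cells all were tested, and limma called 0 (3 with an unadjusted p under 0.05). The list's summed signal was 103824 to 115527 in the (−)/(+) clones and 113291 to 115842 in the (+)/(+) clones, so that the markers of the labelled cell type were bright in every clone. Of 10 primitive endoderm markers 8 were tested and 0 called (1 with an unadjusted p under 0.05), and of 8 neural markers 4 were tested and 0 called (0 with an unadjusted p under 0.05). Their summed signals overlapped between the groups.

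Meg3, the long noncoding RNA at the head of the maternal transcripts, did not separate the groups but varied widely between clones. Its brightest probe set, 1439380_x_at, gave 389, 40.4 and 98.7 in (−)/(+) clones 1 to 3, as against 117, 194 and 32.3 in (+)/(+) clones 4 to 6. Clone 1 was the highest, clones 6 and 2 were the lowest, and the groups overlapped. The means were 176 ± 187 and 114 ± 80.8 (SD, n = 3 each), and the log2 difference was -0.32 with a 95% interval from -1.80 to 1.16 and an adjusted p of 0.82 by limma.

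The next brightest, 1452905_at, gave 290, 43.7 and 108 in (−)/(+) clones 1 to 3, as against 120, 111 and 119 in (+)/(+) clones 4 to 6. The (+)/(+) clones lay close together at 117 ± 4.94, whereas the (−)/(+) clones spread over 147 ± 128 on both sides of them. The log2 difference was 0.01 with a 95% interval from -1.0 to 1.02 and an adjusted p of 0.99. The interval of 1439380_x_at holds changes in either direction as large as that of Dlk1, so that an equal level in both groups is not shown.

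The 9 other Meg3 probe sets were below the filter. The one with the lowest difference, 1452183_a_at, gave 143, 15.6 and 63.2 in (−)/(+) clones 1 to 3, as against 4.85, 39.3 and 3.43 in (+)/(+) clones 4 to 6. Clone 1 was again the highest, and clone 2 lay below clone 5. Over all 11 probe sets the signals ran from 0.979 to 389, the log2 differences ran from -1.38 to 0.28, 9 were negative and 2 positive (8 and 3 after quantile normalization or scaling to a common median), and the groups overlapped in all 11. The summed Meg3 signal was 1338, 377 and 589 in (−)/(+) clones 1 to 3, as against 581, 629 and 428 in (+)/(+) clones 4 to 6, so that clone 1 stood above the 5 others, which included both groups. The suffix _x_at marks probes that can cross-hybridise to other sequences.

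The start of Meg3 is shown because the maternal transcripts begin there and clone 1 was high in them. The stretch is chr12:109540746-109541045 of GRCm38.p6, plus strand, from RefSeq, again with each CpG in capitals.
Meg3: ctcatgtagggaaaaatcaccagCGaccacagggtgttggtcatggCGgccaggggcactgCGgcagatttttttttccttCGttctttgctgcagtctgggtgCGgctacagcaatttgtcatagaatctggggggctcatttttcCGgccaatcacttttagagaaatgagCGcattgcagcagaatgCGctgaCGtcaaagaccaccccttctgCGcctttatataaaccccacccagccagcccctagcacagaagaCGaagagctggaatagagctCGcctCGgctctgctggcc
It holds 13 CpG, more than 62.1% of the 32851 promoters of this length. It holds 1 match to TGACGTCA, 57 bases before the start, a motif found in 1.79% of all promoters, and 1 match to TGCCGC, 190 bases before the start and on the other strand, which 11.6% of all promoters hold. TATAAA had 2 matches here, which overlap in the same stretch, 29 and 25 bases before the start and 1 on each strand. At least 1 match was found in 13.6% of all promoters. These matches describe letters only. A further RefSeq start of Meg3 has its stretch at chr12:109545148-109545447, which holds 1 CpG and 0 matches to these motifs. The stretch at the RefSeq start of Rian holds 0 CpG, that of Mirg 10 and that of Dio3 25. Whether transcription begins at these starts in the clones was not tested.

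Rian, a noncoding RNA that carries small nucleolar RNAs in its introns, had its highest signals in clone 1 as well. The tested probe set, 1452899_at, gave 217, 47.8 and 84.1 in (−)/(+) clones 1 to 3, as against 89.8, 80.6 and 28.2 in (+)/(+) clones 4 to 6. Clone 1 was the highest, clone 6 the lowest, and the others overlapped. This probe set passed the filter only with clone 1 included, and was not tested when clone 1 was left out. The means were 116 ± 89.0 and 66.2 ± 33.2 (SD, n = 3 each), and the log2 difference was -0.57 with a 95% interval from -1.59 to 0.45 and an adjusted p of 0.51. Exact two-sided permutation tests gave p = 0.8 for the brightest Meg3 probe set and p = 0.5 for this one.

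The other 3 Rian probe sets were below the filter, and all had small positive differences of at most 0.19. The brightest of them, 1427580_a_at, gave 164, 20.4 and 34.7 in (−)/(+) clones 1 to 3, as against 81.8, 48.6 and 39.0 in (+)/(+) clones 4 to 6. Clone 1 was the highest here too, while clones 2 and 3 were the lowest, and the difference of 0.02 was small beside that spread. Rian as a whole thus had no common direction over its 4 probe sets.

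Mirg, the last of the noncoding genes, is a host of microRNAs, and both its probe sets were below the filter. Probe set 1440097_at gave 39.3, 44.5 and 11.1 in (−)/(+) clones 1 to 3, as against 60.4, 27.4 and 29.8 in (+)/(+) clones 4 to 6, a log2 difference of 0.25 with an exact permutation p of 0.7. Clone 4 was the highest and clone 3 the lowest, and the groups overlapped. Probe set 1457030_at gave 51.0, 4.20 and 25.0 in (−)/(+) clones 1 to 3, as against 1.33, 3.52 and 34.2 in (+)/(+) clones 4 to 6, a difference of -0.57, so that its direction was opposite and its groups overlapped as well.

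RefSeq places 54 microRNA hairpins with 106 mature forms on the plus strand from the start of Meg3 to the end of Mirg. Of the hairpins 1 lies within Meg3, 3 within Rian, 10 within Mirg and 40 between these genes, and 8 seeds are shared by several mature forms. The array measured the host RNAs and not the mature microRNAs. Shown are miR-410 and a pair that share a seed, all from hairpins within Mirg, with the seed (bases 2 to 8) in capitals. They lie at chr12:109743764-109743784, chr12:109735669-109735692 and chr12:109739132-109739152 of GRCm38.p6.
mmu-miR-410-3p: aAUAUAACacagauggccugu
mmu-miR-453: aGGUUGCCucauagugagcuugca
mmu-miR-496a-5p: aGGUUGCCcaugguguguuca

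Taking the 17 probe sets of Meg3, Rian and Mirg side by side, the clones differed more than the groups. Clone 1 was the highest clone in 11 of them (64.7%), while it was the highest in 19.8% of all probe sets of the array and in 18.3% of those below the filter. Its median shift from the median of the 6 clones was 0.90 on the log2 scale over the 17, and the median shifts of clones 2 to 6 lay between -0.21 and 0.11. Over all probe sets the median shift of clone 1 was 0.02. This pattern was seen in the values and not tested, and probe sets of 1 gene share their RNA.

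Signals above 100 were found in 6 of the 17 probe sets in clone 1, in 0 in clone 2 and in 1 or 2 in each of the other 4 clones. None of the 17 had groups that did not overlap, while 20.1% of all probe sets had. Of the probe sets below the filter, where 14 of the 17 lay, 13.1% had. The median log2 difference of the 17 was -0.17 with 11 negative, against -0.07 with 58.5% negative over all probe sets. It was -0.04 after quantile normalization and -0.05 with arrays scaled to a common median. Without clone 1 the median was 0.20 with 8 negative, so the direction turned with that clone, and the highest signal left was 194. Without clone 6 the median was -0.00025. The brightest Meg3 probe set turned in the same way, from -0.32 to 0.46 without clone 1 and to 0.28 without clone 6.

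**Figure D3:**
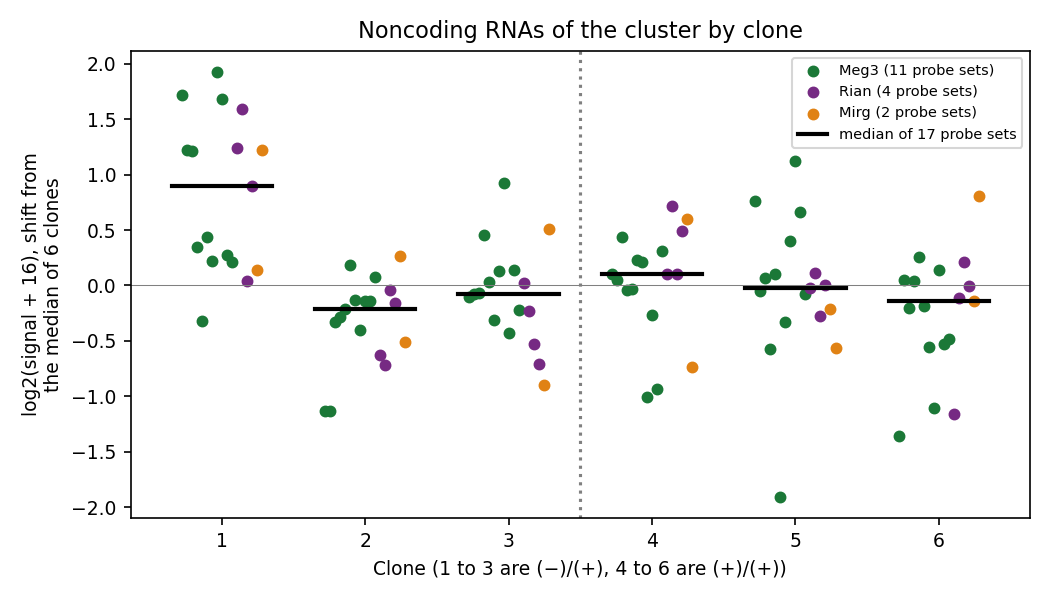
Shift of log2(signal + 16) from the median of the 6 clones (y axis) for the 17 probe sets of Meg3, Rian and Mirg (points) in each clone (x axis, with the groups split by the dotted line). Black bars are medians over the 17 probe sets: clone 1 is at 0.90 and the other clones lie between -0.21 and 0.11.

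Expression on both sides of the cluster was compared with that inside it, for the 10 nearest genes on each side that had a probe set of their own. Of the 20 neighbours 13 were tested and limma called 0 (3 with an unadjusted p under 0.05), with log2 differences from -0.40 to 0.18 and a median of -0.16. Over the array, 4778 of 22518 tested probe sets had an unadjusted p under 0.05. Wdr25, the nearest before Dlk1, differed by 0.18 between the groups. Ppp2r5c, a regulatory subunit of protein phosphatase 2A and the nearest gene after Dio3, gave 3850, 4784 and 4153 in (−)/(+) clones 1 to 3, as against 4280, 4598 and 4798 in (+)/(+) clones 4 to 6, a difference of 0.10 with overlapping groups.

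The median shift over 222 genes of chromosome 12 with a mean signal above 500 was -0.03 in clone 1 and between -0.03 and 0.03 in all clones. A median over the whole chromosome cannot show a change confined to a part of it, which was not tested. Dio3os, the transcript antisense to Dio3, was chosen after the other values were seen, since Dio3 itself was not measured. Its signals were 8.75, 36.1 and 33.3 in (−)/(+) clones 1 to 3, as against 2.58, 30.0 and 43.4 in (+)/(+) clones 4 to 6. It was below the filter, its groups overlapped, and clone 1 was among the 2 lowest clones.

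**Figure D4:**
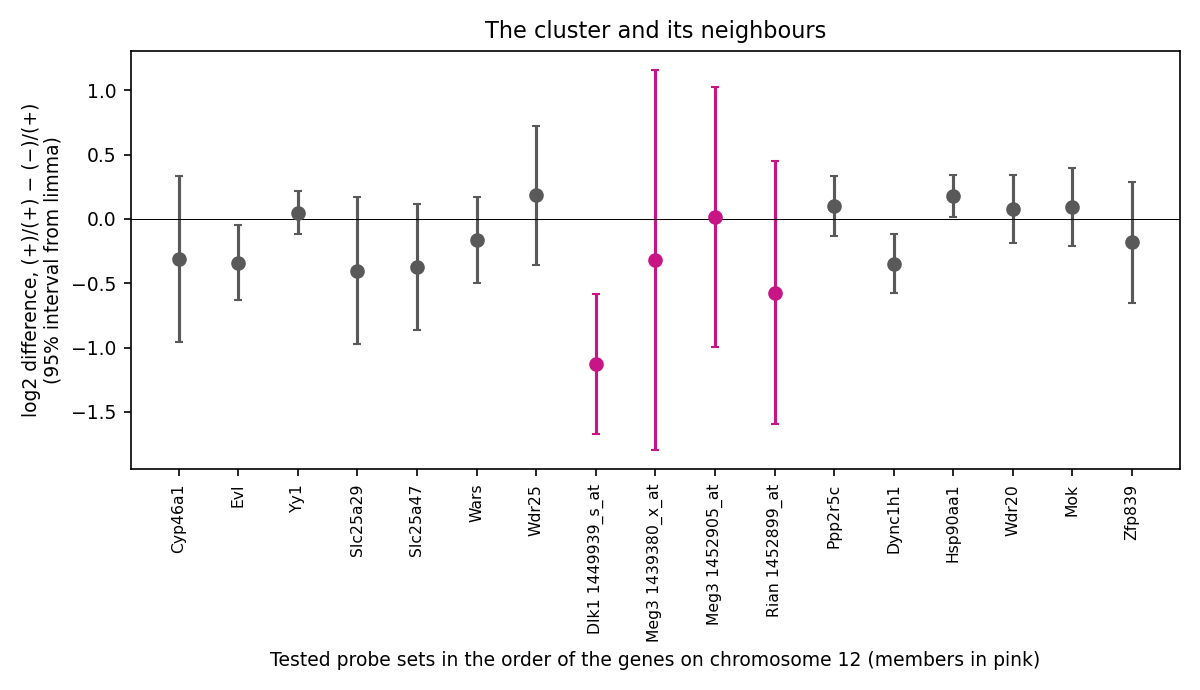
log2 difference, (+)/(+) minus (−)/(+) (y axis, points with 95% intervals from limma), for the 4 tested probe sets of the cluster (pink) and its 13 tested neighbours (grey) in the order of their genes on chromosome 12 (x axis). Dlk1 at -1.13 has an interval that stays below 0, the intervals of Meg3 and Rian are wide, and the neighbours lie between -0.40 and 0.18.

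Genes listed as imprint regulators, which include the Tet genes and general chromatin genes such as Ezh2, gave 1 call. Of 22 such genes 21 were measured and 20 tested, and limma called 1 lower and 0 higher (5 with an unadjusted p under 0.05). Those 5 were Uhrf1, Dnmt1, Dnmt3l, Tet1 and Ehmt2, all lower in the (+)/(+) iPSCs. Dnmt1 lay just past the threshold (-0.38, adjusted p = 0.053 by limma). Over all genes tested with their brightest probe set, 1.41% were called lower. Of all 22518 tested probe sets, 4778 had an unadjusted p under 0.05. Uhrf1, which guides the maintenance methyltransferase to newly copied DNA, gave 6656, 8248 and 7319 in (−)/(+) clones 1 to 3, as against 5516, 5348 and 5161 in (+)/(+) clones 4 to 6. Its groups did not overlap, and its log2 difference was -0.47 with an adjusted p of 0.036. That call was lost without any 1 of clones 2 to 6 (adjusted p of 0.075 to 0.15) and with arrays scaled to a common median (0.13), over a range of 0.0065 to 0.18 for all settings.

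Dppa3, a maternal factor that shields imprints from demethylation, was singled out after its values were seen because it was the most variable regulator. It gave 5759, 672 and 1938 in (−)/(+) clones 1 to 3, as against 2439, 3271 and 4584 in (+)/(+) clones 4 to 6, so that clone 1 was the highest and clone 2 the lowest of overlapping groups. Its log2 difference was 0.75 with an adjusted p of 0.49 by limma.

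Imprinted genes elsewhere in the genome did not share 1 direction. Of 23 other paternally expressed genes 21 were measured and 14 tested, of which limma called 2 lower and 1 higher, with a median of 0.03. Plagl1, a zinc finger protein that restrains growth, fell from 7071 ± 511 to 4105 ± 444 (-0.79, adjusted p = 0.0074), and the noncoding RNA Kcnq1ot1 fell from 329 ± 58.9 to 179 ± 37.9 (-0.83, adjusted p = 0.048). The growth factor Igf2 rose from 138 ± 20.8 to 251 ± 21.8 (0.80, adjusted p = 0.040, SD and n = 3 each). Over all genes tested with their brightest probe set, 1.55% were called higher.

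Plagl1 kept its call without any 1 clone, Igf2 kept it only without clone 1, and Kcnq1ot1 lost it without each clone (adjusted p of 0.055 to 0.19). Of 20 genes listed as maternally expressed 17 were measured and 12 tested, and limma called 0 (3 with an unadjusted p under 0.05), with a median of -0.09. The brightest were the tetraspanin Cd81 at 7262 ± 833 and 6864 ± 277, the ubiquitin ligase Ube3a at 5300 ± 85.1 and 6241 ± 647, and the adaptor protein Grb10 at 2610 ± 1427 and 2706 ± 859, in (−)/(+) and (+)/(+) iPSCs. Whether the genes of either list were expressed from only 1 copy in these cells was not measured.

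**Figure D5:**
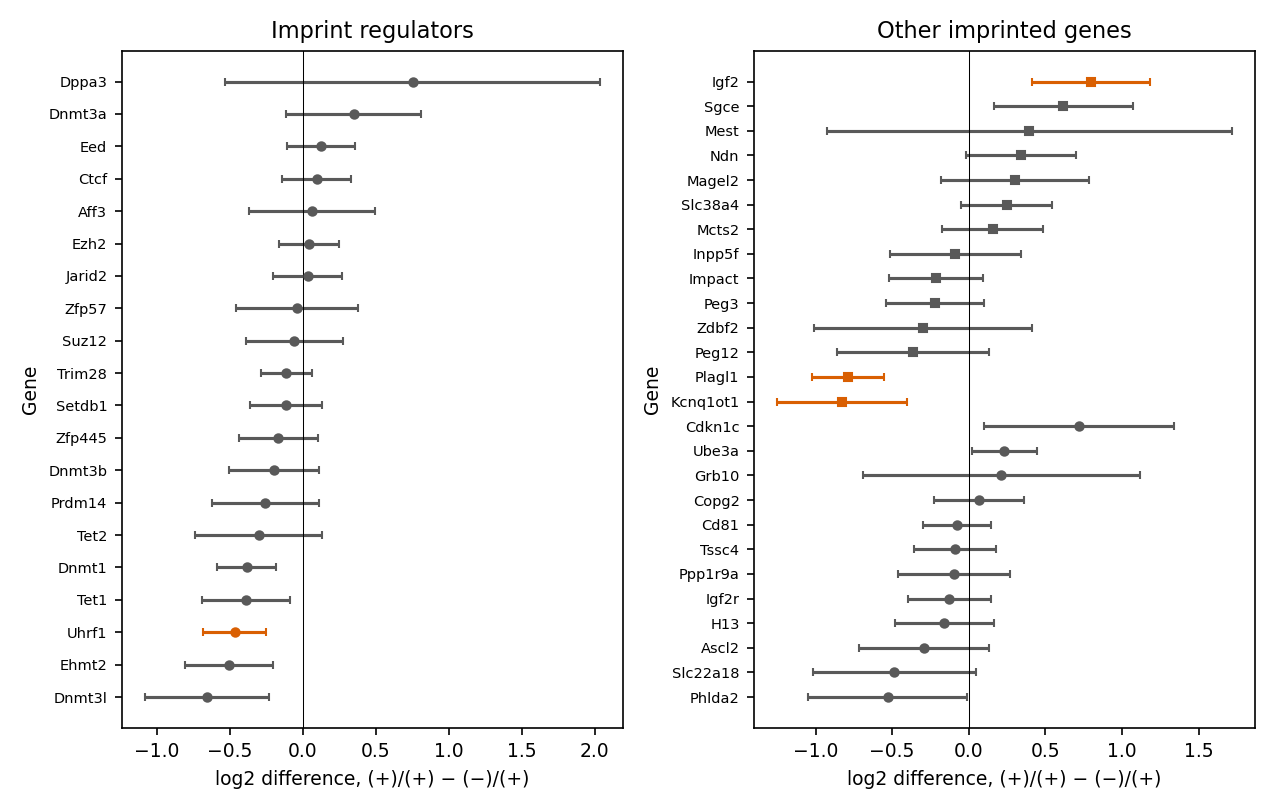
log2 difference, (+)/(+) minus (−)/(+) (x axis, with 95% intervals from limma), for 20 tested imprint regulators (left) and for 14 paternally expressed (squares) and 12 maternally expressed (circles) imprinted genes outside the cluster (right). Orange marks the 4 genes past the adjusted threshold: Uhrf1, Plagl1 and Kcnq1ot1 are lower and Igf2 is higher in the (+)/(+) clones.

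The genes whose pattern over the 6 clones was most like that of each tested member were taken by Pearson correlation of log2(signal + 16) among 11177 genes, as a description over points that share their arrays. For Dlk1 these were Bcr (r = 0.997), Fam193b (0.996) and Fosl2 (0.990), all highest in clone 3 and lowest in clone 4. For Meg3 they were Gas2l3 (0.987), Tmtc4 (0.986) and Dennd5a (0.984), and for Rian they were Ehmt1 (0.988), Mlx (0.985) and Zbtb32 (0.981), all of them highest in clone 1. The like genes of Meg3 and Rian spanned much less than these members: the highest clone over the lowest was 1.37-fold for Gas2l3 and 1.38-fold for Ehmt1.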

How the data were processed

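Total RNA of 6 iPSC clones (3 per group) was hybridised to Affymetrix mouse arrays, and the authors deposited MAS 5.0 signal intensity per probe set, already scaled: in the values, the mean of each array after trimming 2% at either end was 500. Groups came from the labels, all sample columns were mapped, and scan batches are not given in the sources used here. The number of arrays limits the precision. Of 45101 probe sets, 64 controls were left out. Probe sets were named through the platform annotation: 34945 had 1 symbol, 932 several and 9160 none.

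Signals were analysed as log2(signal + 16) with limma 3.58.1 (R 4.3.3; lmFit, eBayes with trend), after removing probe sets at or below the median of the mean log2 values (6.38). Calls had an adjusted p under 0.05 (Benjamini-Hochberg). Exact permutation tests were two-sided. Each listed gene was read by its brightest probe set. The test was checked on simulated data. Named were every member, up to 4 called genes per list or the 3 brightest where none was called, the nearest neighbours and the 3 most correlated genes, with exceptions stated. Members and lists were chosen with earlier results of these data known. Alternatives were leaving out each clone, the methods' t-test, array weights, no trend, gene means, a filter at a mean signal of 500 or none, pseudocounts of 1 and 64, and 2 other normalizations (quantile, common median). Promoter and microRNA sequences were from RefSeq (GRCm38.p6); 5 of 6 members had a promoter entry. Rtl1 had none. Plots used matplotlib.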

Additional observations from a re-analysis of the deposited data

How the results depend on the processing

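The Dlk1 probe set 1449939_s_at was lower in the (+)/(+) iPSCs under every alternative that could test it, but its call was not stable. The log2 difference was -1.01 with an adjusted p of 0.056 after quantile normalization. It was -1.13 with an adjusted p of 0.096 without the filter, 0.067 without the trend and 0.22 with the methods' t-test, over a range of 0.0093 (array weights) to 0.22. The count of members called lower was thus 0 in these settings, and 0 to 1 when 1 clone was left out (log2 difference from -1.40 to -0.96). No member could be tested at a mean signal above 500 or with gene means.

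The methods' t-test called 1 probe set of 22518 after adjustment and 3999 at an unadjusted p under 0.05. Scaling each array to a common median moved the median log2 difference of all tested probe sets from -0.05 to 0.10, and the share of higher calls from 43.4% to 79.4% (917 higher, 238 lower). Dlk1 was then at -0.98. Over all lists, 15 genes were lower and 1 higher. The lower count became 9 with a common median, 6 without the filter, 9 at a mean signal above 500, 5 without the trend, 28 with array weights, 8 with gene means, 0 with the t-test and 2 to 17 without 1 clone. The higher count became 3, 0, 0, 0 and 5 with the first 5 of these settings, 0 with the t-test, and 0 to 1 without 1 clone. Neighbours called lower rose from 0 to 1 with array weights.

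Sizes near 0 changed sign. The probe set 1452905_at of Meg3 became -0.05 with a pseudocount of 64, and -0.56 to 0.62 without 1 clone. The brightest Meg3 probe set ran from -0.96 to 0.46 without 1 clone, and the Mirg probe set 1440097_at from -0.12 (without clone 3) to 0.46 (without clone 2). Wdr25 ran from -0.00 to 0.35, and Ppp2r5c became -0.02 with gene means. The causes were not tested. No paired analysis was possible because the groups share no clone number. Without the filter, the 15 dimmer probe sets of the cluster had adjusted p-values of 0.27 to 0.99, and none was called. A small difference in such dim probe sets may not be visible on arrays.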

Other observations

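Pathways of the protein-coding members were also read. Dlk1 is related to Notch ligands, and of 14 Notch receptors, ligands and targets 12 were tested and limma called 0 (0 with an unadjusted p under 0.05). The median log2 difference was 0.00, with a range from -0.38 to 0.30. The transcription factor Rbpj, through which Notch receptors act, was the brightest at 3141 ± 204 in (−)/(+) and 3054 ± 123 in (+)/(+) iPSCs (SD, n = 3 each).

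Dio3 inactivates thyroid hormone. Of 9 genes of thyroid hormone handling 8 were measured and 3 tested, and limma called 0 (1 with an unadjusted p under 0.05). The receptor Thra was at 239 ± 14.1 and 191 ± 31.2, and the hormone-binding protein Crym at 243 ± 8.56 and 164 ± 33.3 (adjusted p = 0.12). The summed signal of the list was 669 to 780 in the (−)/(+) clones and 581 to 603 in the (+)/(+) clones, and 5 of the 8 genes in it were below the filter. These sums did not overlap, and 20.1% of all single probe sets of the array did not overlap either.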
